A study of Mus musculus with 14 samples.

Results

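In RNA immunoprecipitation sequencing (RIP-Seq) of mouse embryonic stem cells (ESCs), 187 abundant transcripts were listed at 0 in the RNA pulled down with TRIM71. The members were selected on the measured values: an input of at least 50 FPKM (mapped fragments per kilobase of transcript, scaled to the size of the library) and a pulldown value of exactly 0. Symbols starting with Rpl, Rps, Nduf, Cox, Uqcr or Atp5, which name cytosolic ribosomal proteins and respiratory chain subunits, were left out. The table held 14054 transcripts, of which 1618 had an input of at least 50 FPKM. Of these, 156 carried a left-out prefix, so the members were 187 of 1462 transcripts (12.8%), and the remaining 1275 abundant transcripts were above 0 in the pulldown. Of all 14054 transcripts at any input, 8459 were at 0 in the pulldown (60.2%). Since the rule used the input and pulldown values of the members, these values are a description and carry no test.

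TRIM71 is an RNA-binding protein of the TRIM-NHL family. Its NHL repeats contact RNA, its RING domain is that of a ubiquitin ligase, and it is known as a repressor of mRNAs in pluripotent cells and early embryos. In RIP-Seq, a protein is precipitated with an antibody. The RNA that comes with it is sequenced beside RNA of the starting lysate, called input. A transcript abundant in the input and missing from the pulldown values was not detected there. Whether it was absent from the precipitate or sampled too thinly to be listed was not tested.

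All cells were ESCs from a cross labelled C57BL/6(F) x 129/sv(M), given as of a 3.5 days stage and grown on gelatin in N2B27 medium. The RIP-Seq cells overexpressed 3XFLAG-tagged Trim71 in 2i + LIF, that is, with 1.0 μM PD0325901, which inhibits MEK, 3.0 μM CHIR99021, which inhibits GSK3, and LIF at 1000 units/ml, and were UV-crosslinked before precipitation with FLAG antibody. The expression of the members was followed in 8 RNA-seq libraries of 4 groups with 2 samples each: wild-type and *Trincr1*−/− ESCs, both in 2i + LIF and in PD + LIF, the latter after 24 h in 2i + LIF and 4 days without CHIR99021. The long noncoding RNA *Trincr1*, named for its interaction with TRIM71, was deleted with a pair of guide RNAs flanking exons 2 to 4. The labels give neither the number of knockout clones sequenced nor the genotype of the input cells. Pulldown values of empty-vector ESCs were not used here.

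What limits the pulldown values bears on every member. The labels list 2 replicates of input and of pulldown, but the table gives 1 value for each, rounded to 1 decimal, and how replicates were combined is not stated, so no member has an error. Input RNA was selected for poly(A) tails like the RNA of the RNA-seq libraries, whereas precipitated RNA went into cDNA without selection. The depth of both RIP-Seq libraries is unknown, and a value that rounds to 0.0 cannot be told apart from no read. *Trim71* itself stood at 133.4 FPKM in the input, against 30.8 to 37.7 FPKM in the RNA-seq libraries.

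The input values of the members ran from 50.1 to 343.5 FPKM, with a median of 69.6 FPKM, and together made up 2.82% of the summed input. The 1275 other abundant transcripts had a median input of 99.4 FPKM and a median pulldown value of 15.7 FPKM. Their ratio of pulldown to input had a median of 0.131 and a 5th percentile of 0.0151, and 48 of them lay at or below 1 FPKM in the pulldown. The input of 114 eligible transcripts lay above that of the highest member. Just inside the input threshold were *Pqbp1* (50.1 FPKM) and *Isoc2a* (50.2 FPKM). *Pdha1* (49.9 FPKM) and *Lactb2* (49.6 FPKM), also at 0 in the pulldown, lay just outside it. On the other side of the rule, *Taf5l*, *Rbm17*, *Mrpl42* and *Dap3* had the lowest pulldown value above 0, namely 0.1 FPKM, at inputs of 55.3, 55.5, 75.9 and 224.1 FPKM.

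**Figure D1:**
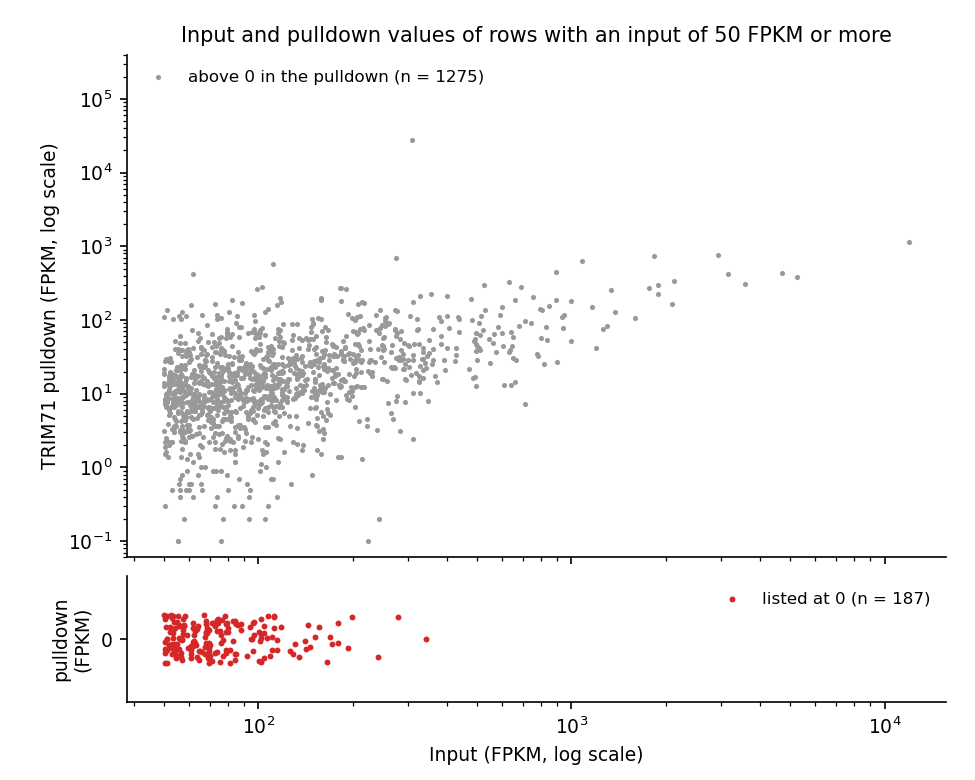
Input (x axis) and pulldown (y axis) values in FPKM, both on log scales, of the 1462 transcripts with an input of at least 50 FPKM and no left-out prefix; each point is 1 transcript, and the strip below holds those at 0, spread vertically at random. The 187 members (red) reach up to 343.5 FPKM in the input, and the values of the others (grey) extend down to 0.1 FPKM in the pulldown.

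The 10 members with the highest input were mostly short. *Gm10736*, a predicted gene, led with 343.5 FPKM. It had 5 stretches of near-identical sequence elsewhere in the genome and was listed at 0 in all 8 RNA-seq libraries. *Lsm3*, a subunit of the LSm ring that binds U6 snRNA, followed with 278.9 FPKM, and *Gstp1*, a glutathione S-transferase, with 241.0 FPKM. *Snrpe*, the E protein of the Sm ring of spliceosomal snRNPs, had 198.5 FPKM. The others were *1810009A15Rik* (194.0 FPKM), *2210409E12Rik* (179.7 FPKM), the chaperone-like *Cnpy2* (179.1 FPKM), the mitochondrial ribosomal protein gene *Mrps16* (172.3 FPKM), the FK506-binding prolyl isomerase *Fkbp1a* (169.7 FPKM) and the pseudogene *Gm8186* (166.1 FPKM). Only *Fkbp1a* and *Cnpy2* among these 10 had an annotated transcript over 1000 bases, of 2011 and 1017 bases.

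Members were shorter than the other abundant transcripts. Length was that of the longest transcript in the GENCODE annotation of NCBIM37, the assembly also called mm9. The rule did not name length, but FPKM counts fragments per kilobase of transcript, so length enters the values that the rule used. At equal FPKM, a shorter transcript has fewer fragments. The part of this in the lengths of the members was not tested. The median was 1577 bases for the 187 members (interquartile range 938 to 2509) and 2136 bases for the 1275 others (1365 to 3108.5). With the median over all annotated transcripts of a gene as its length, the values were 846 and 1001 bases, a smaller gap. Coding sequences, taken from genes with a complete one, had medians of 690 and 1053 bases, which encode proteins of 229 and 350 residues. The 3′ untranslated regions had medians of 332 and 500.5 bases, the 5′ untranslated regions of 115 and 135 bases, and the number of exons was 5 against 8. GC content lay close together, with medians of 51.6% and 52.3%, and both sets had a median of 4 annotated transcripts per gene. These are descriptions over genes, which are not replicates, and no test was made of them.

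The share of transcripts at 0 fell with length, which also enters each FPKM value. Among eligible transcripts under 800 bases, 35 of 118 were at 0 (29.7%). From 800 to under 1500 bases the share was 53 of 332 (16.0%), from 1500 to under 2500 bases 52 of 458 (11.4%), and from 2500 bases on 47 of 554 (8.48%). It also fell with input, from 110 of 511 (21.5%) between 50 and 75 FPKM to 3 of 261 (1.15%) at 200 FPKM or more. The median length of the other abundant transcripts was lower at higher input, so lengths were set side by side within classes of input. Members were the shorter set in each of the 4 classes, with medians of 1778 against 2330 bases from 50 to 75 FPKM, 1652.5 against 2273.5 bases from 75 to 100 FPKM, 1178 against 2120 bases from 100 to 200 FPKM, and 631 against 1759 bases for the 3 members above that. The order of the length classes was not the same at each input. From 75 to 100 FPKM, 4 of 21 transcripts under 800 bases were at 0 (19.05%), a lower share than the 12 of 50 from 800 to under 1500 bases (24%). With 2500 bases or more it was 7 of 108 (6.48%). Between 100 and 200 FPKM, 16 of 36 transcripts under 800 bases were at 0 (44.4%), against 7 of 153 with 2500 bases or more (4.58%). At 200 FPKM or more, all 3 members were under 800 bases, and none of the 77, 87 and 67 transcripts of the 3 longer classes was at 0.

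**Figure D2:**
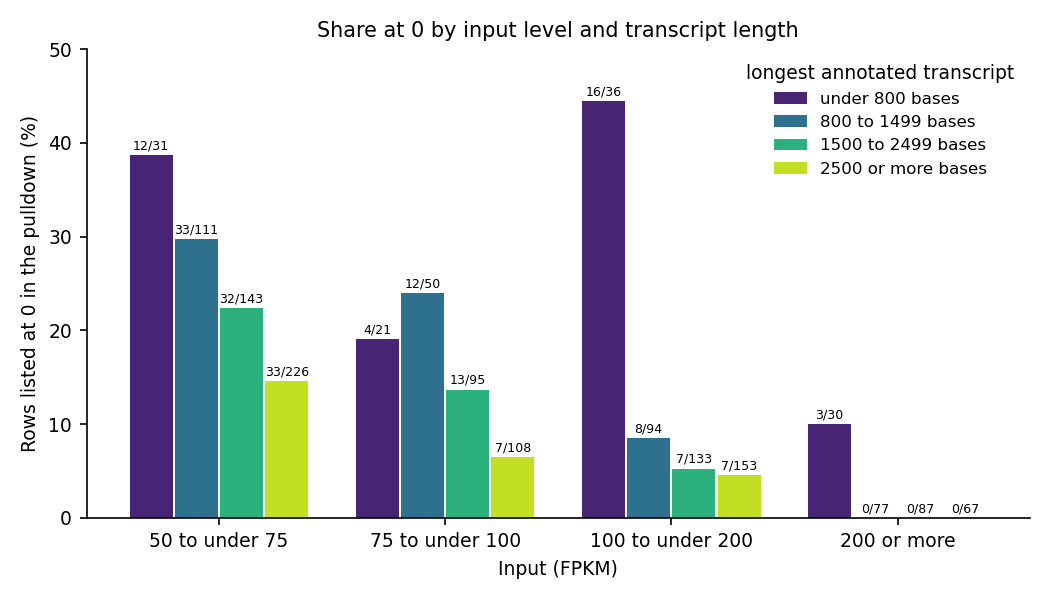
Percentage of transcripts listed at 0 in the pulldown (y axis) by input in FPKM (x axis) and by length of the longest annotated transcript (colours); the numbers over the bars give transcripts at 0 over all in the class. The bar of the shortest class between 100 and 200 FPKM reaches 44.4%, and that of the longest class 4.58%.

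Length did not separate the sets. The longest member was *Mprip*, a regulator of myosin phosphatase, with a transcript of 12522 bases, an input of 64.7 FPKM and a protein of 2269 residues. It was followed by the methyltransferase gene *Smyd3* (6871 bases, 71.2 FPKM), *Mta3* of the NuRD chromatin complex (5486 bases, 64.1 FPKM), the coatomer subunit *Copg* (5348 bases, 84.0 FPKM) and *Erp29* of the endoplasmic reticulum (5204 bases, 102.3 FPKM). The longest proteins after *Mprip* were those of *Copb2* (905 residues), *Copg* (877 residues), *Taf6* (678 residues) and *Fxr1* (677 residues). At the other end, *Gm10736* had an annotated protein of 25 residues, *2310016M24Rik* of 57, the copper chaperone *Atox1* and the G protein gamma subunit *Gng5* of 68 each, and *Tomm6* of the outer mitochondrial membrane of 74.

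The shortest annotated transcripts were those of *Gm15516* (193 bases), *Gm10736* (200 bases), *Gm8186* (231 bases), *2210409E12Rik* (346 bases) and *Gm15430* (358 bases). All 5 consist of 1 exon. *Gm15516*, *Gm8186* and *2210409E12Rik* are annotated as pseudogenes, and they were the only 3 of 22 eligible pseudogenes at 0. Several of these are near-copies of other genes, so their FPKM values depend on how reads that fit both places were assigned. The stretches below, read from NCBIM37, are shown because they place *Gm8186* and *Gm15516* beside the coding exon they share with *Snrpg*, which encodes the G protein of the Sm ring, and with *Rpl9*, a protein of the large ribosomal subunit. Capitals mark bases that differ within a pair.
Gm8186, chr17:26235987-26236111, minus strand: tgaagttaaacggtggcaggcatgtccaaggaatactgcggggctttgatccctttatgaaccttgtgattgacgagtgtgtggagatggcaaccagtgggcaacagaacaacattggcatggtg
Snrpg coding exon, chr6:86326489-86326613, plus strand: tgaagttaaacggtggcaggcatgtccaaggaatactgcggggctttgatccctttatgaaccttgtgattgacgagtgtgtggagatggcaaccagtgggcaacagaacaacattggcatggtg
Gm15516, chr14:46332838-46332953, minus strand: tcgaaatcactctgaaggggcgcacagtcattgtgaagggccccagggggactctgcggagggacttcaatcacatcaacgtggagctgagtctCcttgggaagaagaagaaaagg
Rpl9 coding exon, chr5:65781978-65782093, minus strand: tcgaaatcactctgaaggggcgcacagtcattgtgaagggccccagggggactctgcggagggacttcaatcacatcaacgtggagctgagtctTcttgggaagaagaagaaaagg

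The 125 bases of *Gm8186* and *Snrpg* were identical, and *Gm15516* and *Rpl9* shared 115 of 116 bases. *Gm8186* had an input of 166.1 FPKM and a pulldown value of 0, while *Snrpg* had 433.8 and 109.1 FPKM. *Gm15516* had 60.9 FPKM and 0, while *Rpl9* had 1871.7 and 1294.0 FPKM. *Snrpg* and *Rpl9* were well above 0 in the pulldown where *Gm8186* and *Gm15516* were listed at 0. Reads that lie within identical bases cannot be assigned to either gene of a pair by sequence. *2210409E12Rik* (chr11:88833971-88834316, plus strand) lies inside the gene of the Cajal body protein *Coil* on the same strand, and *Coil* stood at 26.9 FPKM (input) and 1.1 FPKM (pulldown). Near-copies were not a general mark of the members. A stretch of at least 95% identity over at least 50% of the transcript was found elsewhere in the genome for 24 members (12.8%), against 16.9% of the others. Overlap with another gene on the same strand was found for 13.9% of members and 13.6% of the others, and on the other strand for 28.3% and 30.7%.

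*Gstp1* and *Gstp2* are a further pair of near-copies, and both were members. They encode pi-class glutathione S-transferases, which conjugate glutathione to electrophiles, and lie 2369 bases apart on the minus strand of chromosome 19 (chr19:4035411-4037921 and chr19:4040291-4042221). Their inputs were 241.0 and 108.8 FPKM. The first 90 bases of both coding sequences are shown as an example of the bases by which reads can be told apart, in capitals, and other such bases lie further along.
Gstp1: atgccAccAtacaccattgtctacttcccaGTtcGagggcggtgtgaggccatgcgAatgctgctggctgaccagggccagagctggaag
Gstp2: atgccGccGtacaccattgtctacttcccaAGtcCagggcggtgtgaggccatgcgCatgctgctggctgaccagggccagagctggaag

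Over the whole coding sequence of 633 bases, 621 were identical (98.1%), and the split of reads between *Gstp1* and *Gstp2* is therefore uncertain in every library.

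Genes with an input of at least 50 FPKM were sorted by symbol into 23 families, of which those of the prefixes left out hold no eligible gene. The families were chosen with earlier results of these data known, and their shares are read against the 12.8% of all eligible transcripts, without matching for length or input. Median lengths were 1314 bases for transcription subunits, 1235 for mitochondrial ribosomal proteins and 1263.5 for splicing proteins, against 2316.5 for genes with no family. Redox and nucleolar genes, with shares of 9.09% and 7.69%, had 1038 and 1283 bases. The part of length and input in these shares was not tested. Of 21 subunits of RNA polymerases, general transcription factors and Mediator, 7 were at 0 (33.3%), with transcripts of 819 to 2619 bases. These were *Polr2g* (102.0 FPKM), *Polr2i* (67.6 FPKM) and *Polr2j* (55.3 FPKM) of RNA polymerase II, *Polr1d* (63.5 FPKM), shared by RNA polymerases I and III, the transcription factor IIIA gene *Gtf3a* (68.5 FPKM), *Taf6* of TFIID (61.9 FPKM) and *Med10* of Mediator (55.1 FPKM). Of 30 genes placed by symbol with Sm, LSm and splicing proteins, 8 were at 0 (26.7%), between 55.2 and 278.9 FPKM in the input. Beside *Lsm3* and *Snrpe* these were *Lsm7* (129.3 FPKM), *Sf3b5* of the U2 snRNP (104.0 FPKM), *Snrpd1* (72.7 FPKM), *Txnl4a* of the U5 snRNP (68.0 FPKM), *Lsmd1* (55.7 FPKM), whose place here rests on its symbol alone, and the SR protein gene *Srsf9* (55.2 FPKM). The median length of these 8 was 702 bases.

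Among families of known function, mitochondrial ribosomal proteins held the most members. Of 36 mitochondrial ribosomal proteins, 11 were at 0 (30.6%), led by *Mrps16* (172.3 FPKM), *Mrpl15* (141.4 FPKM), *Mrpl45* (117.8 FPKM) and *Mrpl52* (110.5 FPKM). The 25 above 0 had a median ratio of pulldown to input of 0.221, above the 0.131 of all other abundant transcripts, so values of this family lay on both sides. Transcript lengths of the 11 ran from 412 to 4203 bases. *Timm23* (84.1 FPKM), the channel of the inner membrane translocase, and *Tomm6* (58.5 FPKM) were at 0 among 12 genes of mitochondrial protein import (16.7%). The respiratory chain subunits that the rule left out by prefix had 13 of 62 at 0 (21.0%), and cytosolic ribosomal protein symbols 2 of 94 (2.13%). These were *Rplp2-ps1* and *Rpl15-ps2*, which are pseudogenes by symbol but protein-coding in the annotation used here.

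Genes of the secretory pathway were represented too. Of 15 genes of the endoplasmic reticulum translocon, signal peptidase and glycosylation, 4 were at 0 (26.7%): *Sec61b* (112.5 FPKM) of the translocon, *Krtcap2* (88.2 FPKM) of the oligosaccharyltransferase, and *Srp14* (79.7 FPKM) and *Srp72* (51.0 FPKM) of the signal recognition particle. Of 45 genes of the vacuolar ATPase and vesicle transport, 8 were at 0 (17.8%), among them the coatomer subunits *Copg* and *Copb2* (84.0 and 61.7 FPKM), *Atp6ap1* (63.8 FPKM), an accessory subunit of the vacuolar ATPase, and *Trappc2l* (61.8 FPKM) of the TRAPP complex.

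The families of known function not yet named lay near or below the share of all eligible transcripts. Of 28 genes of nucleotide metabolism and replication, 4 were at 0 (14.3%): *Nme6* (81.2 FPKM), the thymidylate synthase gene *Tyms* (78.6 FPKM), *Poldip2* (54.6 FPKM) and *Nme1* (50.7 FPKM). Of 35 chaperone genes, 4 were at 0 (11.4%), namely *Cnpy2*, *Fkbp1a*, the tubulin cofactor *Tbca* (101.1 FPKM) and *Hspa14* (53.2 FPKM). *Gstp1* and *Gstp2* were the members among 22 redox genes (9.09%), and *Fbl* (144.3 FPKM), the methyltransferase of box C/D snoRNPs, among 13 nucleolar genes (7.69%). The cell cycle genes *Cdc123* and *Cks2* (2 of 29), *Eif2d* and *Eef1e1* among translation factors (2 of 37) and *Skp1a*, *Psmc1* and *Rbx1* of the ubiquitin and proteasome system (3 of 57) gave shares of 6.90%, 5.41% and 5.26%. No member was found among 22 other mitochondrial energy factors, 13 dynein and tubulin genes, 11 pluripotency-associated genes, 10 thymosins and actin-binding proteins, 6 mitochondrially encoded genes, 5 histones and HMG proteins and 2 listed noncoding RNA genes. Predicted genes, RIKEN clones and expressed sequences, of mostly unnamed function, had 20 of 81 at 0 (24.7%), with a median length of 912.5 bases. The other 109 members, of 932 genes with no family (11.7%), had inputs of 50.1 to 151.2 FPKM and a median length of 1826 bases.

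**Figure D3:**
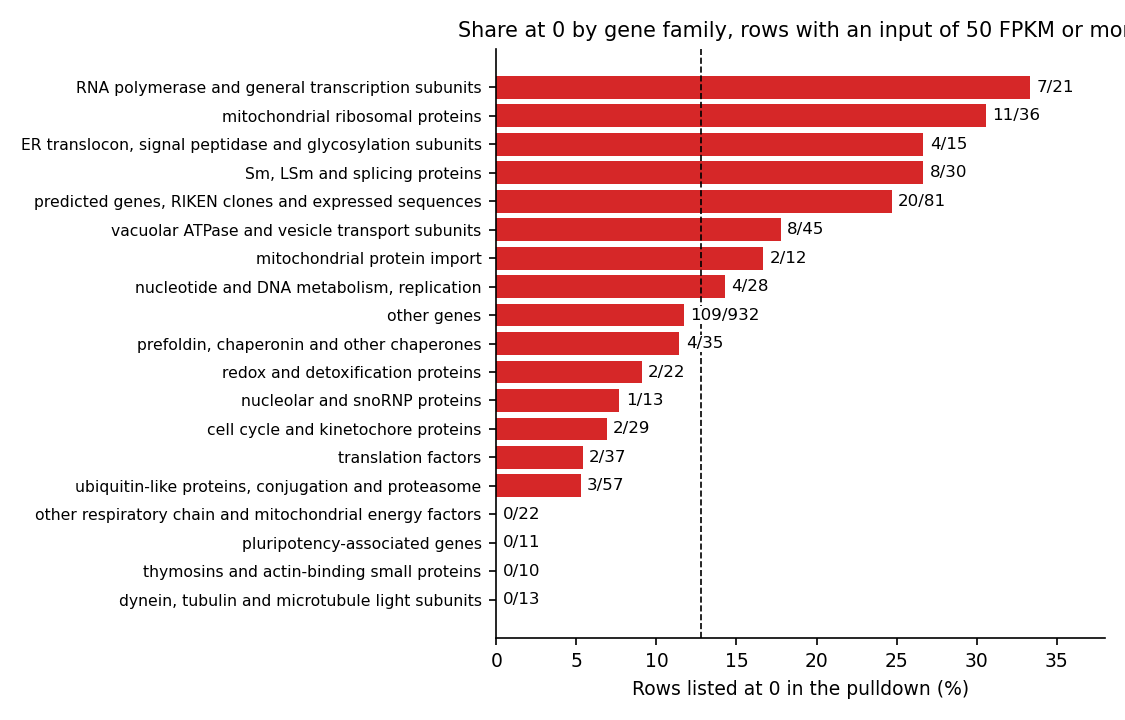
Percentage of transcripts at 0 in the pulldown (x axis) for each gene family (y axis) with at least 10 transcripts of an input of 50 FPKM or more, without the families left out by prefix; labels give the number at 0 over the number in the family, and the dashed line marks the 12.8% of all eligible transcripts. The transcription subunits (7 of 21) and mitochondrial ribosomal proteins (11 of 36) stand at the top, and 4 families stand at 0. Shares are not matched for length or input.

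Among annotated gene types, processed transcripts, a GENCODE class without an annotated open reading frame, were at 0 in each case. The 6 eligible genes of this type were *Gm10664* (84.1 FPKM), *1110038B12Rik* (78.8 FPKM), *Tmem134* (68.1 FPKM), *Gm15430* (54.9 FPKM), *Gm13826* (51.7 FPKM) and *Gm15500* (51.1 FPKM). The same held for most genes of this type at lower input: 13 of 14 were at 0 between 10 and 50 FPKM (92.9%), against 1428 of 3708 protein-coding genes (38.5%), and 57 of 60 between 2 and 10 FPKM (95%), against 2624 of 3994 (65.7%). Of 5 lincRNA genes with an input of at least 50 FPKM, *1810058I24Rik* (95.8 FPKM) was at 0. The other 4 had 136.4 FPKM (*2410006H16Rik*), 3.8 FPKM (*Snhg12*), 1.7 FPKM (*Gas5*) and 1.5 FPKM (*Gm11974*) in the pulldown. By the study's methods, reads on transcripts without poly(A) were left out of the RIP-Seq data; whether that step removed any of these genes from the pulldown was not tested. The protein-coding genes supplied 177 of the 187 members.

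The members were expressed in the RNA-seq libraries as well, at a lower level than the other abundant transcripts. By gene symbol, 172 of the 187 were found in the RNA-seq table. By gene identifier 183 were found, but the match by symbol was used. Of the 172, *Gm10736* and *Gm15516* were listed at 0 in all 8 libraries, although they had 343.5 and 60.9 FPKM in the RIP-Seq input. The mean of the 2 wild-type samples in 2i + LIF had a median of 56.1 FPKM over the 172 members and 87.7 FPKM over 1206 other abundant transcripts. It was at least 50 FPKM for 100 members, between 10 and 50 FPKM for 66 and under 10 FPKM for 6. The RIP-Seq input over this mean had a median of 1.30 (interquartile range 0.849 to 2.09) for 170 members, and of 1.25 for the others. The input exceeded RNA-seq most for *S100a1* (67.9 FPKM against 2.70 and 3.27 FPKM), *S100a13* (53.6 FPKM against 3.49 and 3.86 FPKM) and *Sergef* (53.4 FPKM against 4.01 and 6.79 FPKM). RNA-seq exceeded the input most for *Anp32a* (91.9 FPKM against 636 and 655 FPKM), the RNA helicase gene *Ddx5* (76.0 FPKM against 277 and 292 FPKM) and *2310036O22Rik* (59.5 FPKM against 202 and 202 FPKM). The experiments differ in cells, table and annotation, and these levels were compared without a test.

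**Figure D4:**
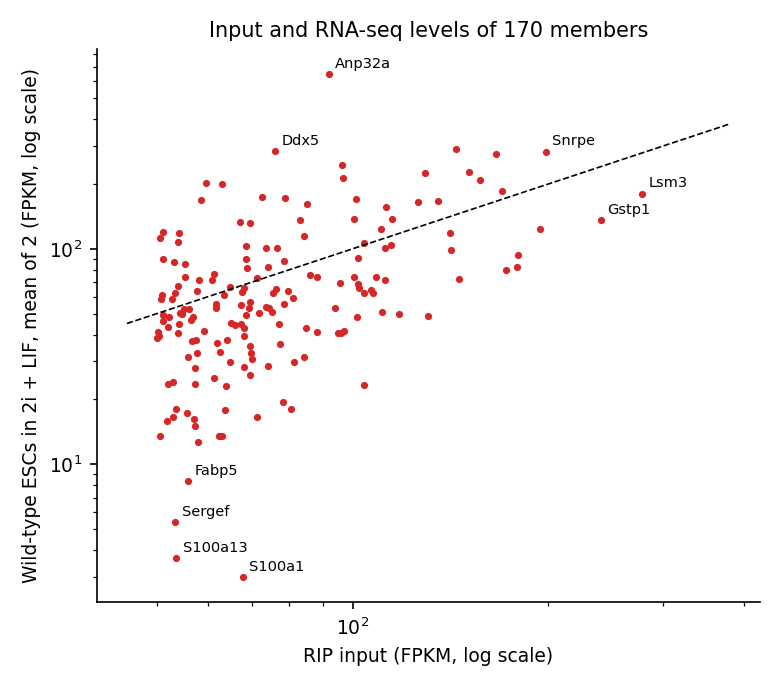
RIP-Seq input (x axis) and mean of the 2 wild-type samples in 2i + LIF (y axis), both in FPKM on log scales, for the 170 members above 0 in RNA-seq; each point is 1 gene and the dashed line marks equal values. *S100a1*, *S100a13* and *Sergef* lie lowest, and *Anp32a* highest.

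By genotype, the RNA-seq libraries matched their labels, and no value was used to check the medium. Estimated from the smallest steps of FPKM, they held 10.3 to 14.1 M fragments. *Gm2694*, the gene of *Trincr1*, had 5.70 to 9.45 FPKM in wild-type ESCs, 0.0754 FPKM and 0 in *Trincr1*−/− ESCs in 2i + LIF, and 1.38 and 0.746 FPKM in *Trincr1*−/− ESCs in PD + LIF. *Pou5f1*, a defining gene of pluripotent cells, ranged from 354 to 726 FPKM. The pluripotency genes *Nanog* and *Zfp42* ranged from 151 to 343 FPKM and from 133 to 252 FPKM. Like *Pou5f1*, they were lower in PD + LIF than in 2i + LIF in each genotype. *Sox2* ranged from 138 to 185 FPKM, with the media overlapping. The endoderm genes *Gata6* and *Sox17* did not exceed 0.125 and 0.128 FPKM. Other markers differed between genotypes at low levels: the trophectoderm gene *Cdx2* had 0.727 and 0.766 FPKM in wild-type and 2.60 and 3.43 FPKM in *Trincr1*−/− ESCs in 2i + LIF, and the fibroblast collagen gene *Col1a1* had 0.373 and 0.446 FPKM against 1.95 and 1.82 FPKM in PD + LIF. The part of these in the values of the members was not tested. Log2(FPKM + 1) values of 15430 genes were compared with limma, with Benjamini-Hochberg adjustment, a threshold of 0.05 and all 8 samples in 1 model. Of the members matched by symbol, 170 were tested. Changes are given on this log2 scale with their standard errors. In bulk RNA, fewer cells that express a gene and less RNA per cell cannot be told apart, and where nothing says that replicates came from separate cultures, the p-values measure only the spread between these samples.

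Most of the members differed between media in wild-type ESCs. In PD + LIF, 31 of 170 members were higher than in 2i + LIF (18.2%), where 30.9% of all tested genes were, and 81 were lower (47.6%), against 21.3% of all genes. The abundant transcripts above 0 in the pulldown had like shares, with 258 of 1204 higher (21.4%) and 565 lower (46.9%). The median change was −0.17 for members, −0.14 for these other abundant transcripts and 0.08 for all tested genes. Among the families, 8 of 11 mitochondrial ribosomal proteins, 6 of 7 tested splicing proteins, 5 of 7 transcription subunits and 4 of 4 genes of nucleotide metabolism fell. *Mrps18b*, for instance, fell by 0.67 ± 0.07 (adjusted p = 1.71e-04), and *Polr2i* fell by 0.80 ± 0.06 (adjusted p = 5.04e-05).

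The strongest falls reached several-fold. *2210409E12Rik* had 91.7 and 95.04 FPKM in 2i + LIF and 11.2 and 15.9 FPKM in PD + LIF, a change of −2.72 ± 0.22 (adjusted p = 7.27e-05). *Ggt1*, a gamma-glutamyltransferase gene, went from 13.6 and 16.4 FPKM to 2.10 and 1.52 FPKM (−2.51 ± 0.15, adjusted p = 2.25e-05). *Fetub*, which encodes a fetuin, went from 17.1 and 15.9 FPKM to 2.42 and 2.02 FPKM (−2.44 ± 0.15, adjusted p = 2.36e-05). That the media did not overlap was a condition for naming these 3 genes and is no added result. *Gstp2* had 68.5 and 79.6 FPKM in 2i + LIF and 15.4 and 14.65 FPKM in PD + LIF (−2.22 ± 0.09, adjusted p = 5.41e-06), whereas its neighbour *Gstp1* had 138 and 135 FPKM against 74.96 and 68.7 FPKM (−0.92 ± 0.07, adjusted p = 4.45e-05). *Isoc2a* fell by 1.16 ± 0.06, from 40.4 and 41.4 FPKM to 18.3 and 17.1 FPKM.

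Higher in PD + LIF were the small calcium-binding protein genes *S100a13* and *S100a1*, which lie 42 bases apart on opposite strands of chromosome 3 (chr3:90318357-90328503, plus strand, and chr3:90314956-90318314, minus strand). *S100a13* had 3.49 and 3.86 FPKM in 2i + LIF and 23.4 and 22.6 FPKM in PD + LIF (2.36 ± 0.12, adjusted p = 1.12e-05). *S100a1* had 2.70 and 3.27 FPKM against 11.9 and 11.9 FPKM (1.698 ± 0.105, adjusted p = 2.49e-05). Both rose together and from a low level. *Mapk3*, which encodes the kinase ERK1, rose from 24.98 and 21.9 FPKM to 51.9 and 56.9 FPKM (1.18 ± 0.08), and *Fabp5*, a fatty acid binding protein gene, from 7.36 and 9.39 FPKM to 20.02 and 20.08 FPKM (1.18 ± 0.15). These 4 genes, and *2210409E12Rik*, *Ggt1*, *Fetub*, *Gstp2* and *Isoc2a* among the falls, kept direction and call in 15 of 15 alternative fits.

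Between genotypes in 2i + LIF, few members differed. Of 170 members, 2 were higher in *Trincr1*−/− ESCs, where 0.35% of all tested genes were, and 1 was lower, against 0.855%. Of the 1204 other abundant transcripts, 0.581% were higher and 1.08% lower. *S100a13* had 3.49 and 3.86 FPKM in wild-type and 6.11 and 7.65 FPKM in *Trincr1*−/− ESCs (0.75 ± 0.12, adjusted p = 0.0344). *Atp6ap1* had 23.4 and 22.7 FPKM against 30.4 and 31.0 FPKM (0.40 ± 0.07, adjusted p = 0.0478). *Bst2*, an interferon-inducible membrane protein gene, had 97.6 and 100.3 FPKM against 68.5 and 69.8 FPKM (−0.51 ± 0.07, adjusted p = 0.0274). These calls rest on the full set of libraries: the count of 3 was 0 without any 1 of the 4 libraries in 2i + LIF or of the *Trincr1*−/− libraries in PD + LIF, and 1 without either wild-type library in PD + LIF. At an unadjusted p under 0.05, limma called 25 members with all libraries and 17 to 26 in the fits with a count of 0. Upper-quartile scaling left 1 call in each direction.

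In PD + LIF, 17 of 170 members were higher in *Trincr1*−/− ESCs (10%), against 6.29% of all tested genes, and 13 were lower (7.65%), against 5.77%. Of the 1204 other abundant transcripts, 13.7% were higher and 12.6% lower. The median difference was 0.05 for members and 0.01 for all genes. The count of 30 fell to 5 without *Trincr1*−/− replicate 1, 6 without wild-type replicate 1, 13 without *Trincr1*−/− replicate 2 and 16 without wild-type replicate 2 of PD + LIF. It was 6 with only the 4 libraries in PD + LIF and 11 without a variance trend. The rises were the less stable direction. The 17 rises became 0 without wild-type replicate 1 (beside 6 falls), 0 without *Trincr1*−/− replicate 1 (5 falls) and 0 with only the libraries in PD + LIF (6 falls). They became 2 without *Trincr1*−/− replicate 2 (11 falls), 2 without the trend (9 falls) and 10 without wild-type replicate 2 (6 falls).

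The largest falls were again in genes that responded to the medium. *S100a1* had 11.9 and 11.9 FPKM in wild-type and 5.19 and 5.64 FPKM in *Trincr1*−/− ESCs (−1.01 ± 0.10, adjusted p = 0.00342). *Gstp2* had 15.4 and 14.65 FPKM against 7.70 and 6.93 FPKM (−0.95 ± 0.09, adjusted p = 0.00254). *S100a13* had 23.4 and 22.6 FPKM against 11.3 and 12.8 FPKM (−0.88 ± 0.12, adjusted p = 0.00645). For these 3 genes every *Trincr1*−/− sample lay below every wild-type sample. *Bst2* had 173 and 201 FPKM against 110.5 and 103 FPKM (−0.80 ± 0.07, adjusted p = 0.00267), and was thus lower in *Trincr1*−/− ESCs in both media. *Pigyl* had 63.0 and 59.1 FPKM against 35.5 and 38.8 FPKM (−0.70 ± 0.08, adjusted p = 0.0037). *S100a1*, *Gstp2*, *Bst2* and *Pigyl* kept the call in 15 of 15 alternative fits, and *S100a13* in 13.

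The rises were smaller. *Txnl4a* had 31.7 and 32.9 FPKM in wild-type and 40.4 and 43.3 FPKM in *Trincr1*−/− ESCs (0.36 ± 0.08, adjusted p = 0.0365). The lincRNA *1810058I24Rik* had 39.0 and 41.0 FPKM against 49.8 and 53.1 FPKM (0.36 ± 0.06, adjusted p = 0.0131), and *Med10* 32.7 and 32.8 FPKM against 41.5 and 41.1 FPKM (0.32 ± 0.05, adjusted p = 0.00876). *S100a11* had 190 and 228 FPKM against 259 and 255 FPKM, and *Sh3bgrl3* 60.8 and 68.3 FPKM against 83.0 and 76.1 FPKM. *1810058I24Rik* and *Med10* kept the call in 11 and 12 of 15 alternative fits, *Txnl4a* in 5, *Sh3bgrl3* in 4 and *S100a11* in 2. Among families, *Lsm3* and *Txnl4a* were the splicing proteins that rose, *1810058I24Rik* and *2310036O22Rik* the RIKEN clones that rose, and *Mrpl15* the mitochondrial ribosomal protein that fell. No other family, apart from the genes with none, had more than 1 call in either direction.

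The genotype effect differed between media for 7 members, as tested by the interaction term. It was lower in PD + LIF than in 2i + LIF for 6 of 170, against 0.817% of all tested genes, and higher for 1, against 0.992%. Of the 1204 other abundant transcripts, 3.24% were lower and 1.99% higher. The 6 were *S100a13*, *S100a1*, *Gstp2*, *Pigyl*, *Atp6ap1* and *Wbp2*, and the 1 was *Med10*. *S100a13* and *Atp6ap1* were higher in *Trincr1*−/− ESCs in 2i + LIF and lower in PD + LIF. *Atp6ap1* had 32.8 and 36.8 FPKM in wild-type and 25.2 and 26.8 FPKM in *Trincr1*−/− ESCs in PD + LIF. *Wbp2* had 59.1 and 58.0 FPKM against 54.0 and 57.2 FPKM in 2i + LIF, where the samples lay close together, and 98.0 and 98.8 FPKM against 68.9 and 67.5 FPKM in PD + LIF. The count of 7 was 0 or 1 without any 1 of the 8 libraries, while 48 members had an unadjusted limma p under 0.05 with all libraries and 38 to 47 in the 4 fits with a count of 0. These contrasts share their wild-type and *Trincr1*−/− libraries with those above.

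**Figure D5:**
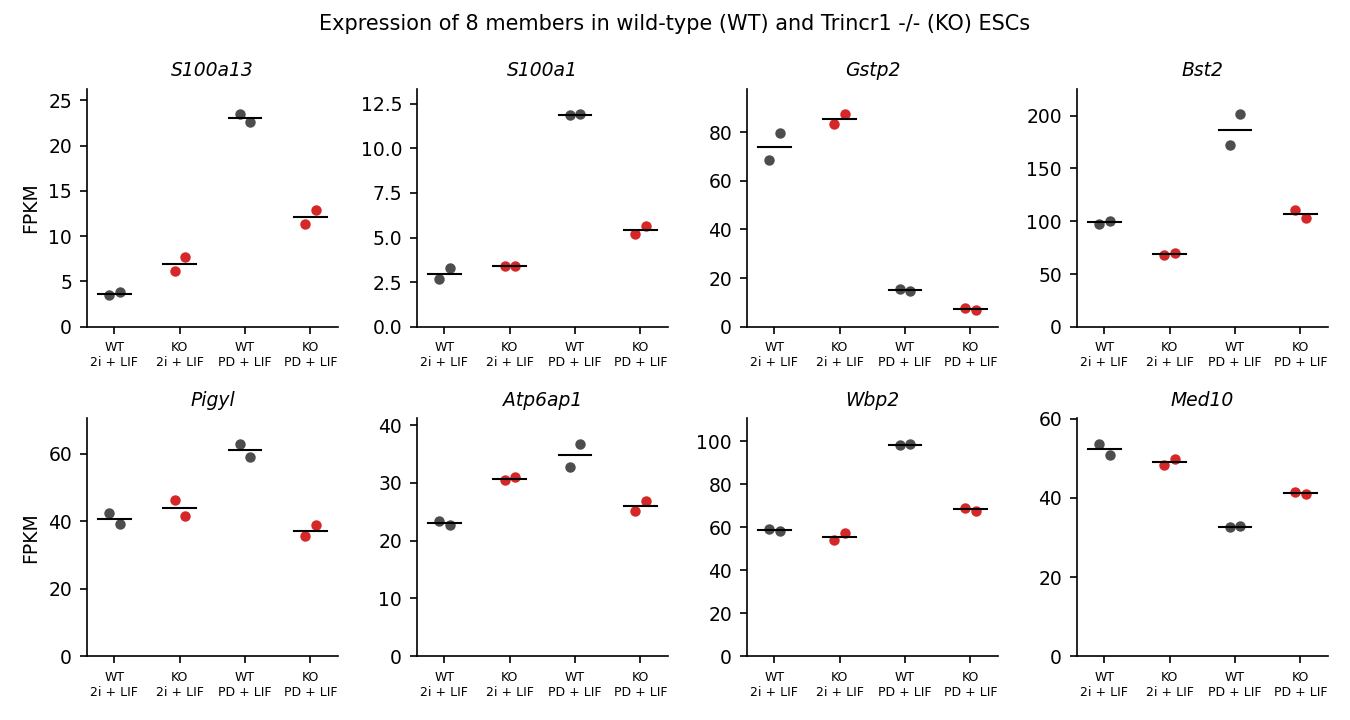
FPKM (y axis, from 0) of 8 members in wild-type (WT, grey) and *Trincr1*−/− (KO, red) ESCs in 2i + LIF and PD + LIF (x axis); points are the 2 samples of each group and lines their mean. *S100a13* and *S100a1* reach 23.4 and 11.9 FPKM in wild-type ESCs in PD + LIF, above every *Trincr1*−/− sample, and *Gstp2* is lower in PD + LIF in both genotypes.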

How the data were processed

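Per the labels and the study's methods, the authors aligned reads to mm9 with STAR 2.5.0 and computed FPKM with Cufflinks 2.2.1. They deposited 1 unscaled FPKM value per transcript for RIP-Seq input and pulldown and FPKM per gene and sample for RNA-seq, whose coordinates are of a later assembly. Their scaled pair and fold of enrichment, deposited beside these and recorded as score values, were not used. Members, families and contrasts were chosen with earlier results of these data known. Lengths came from GENCODE vM1 on NCBIM37, where all 14054 identifiers matched, and near-copies from BLAST 2.17.0 (identity of at least 95%, at least 50% of the transcript, word size 40). RNA-seq genes with a mean above 0.2 FPKM were tested with limma 3.58.1 in R 4.3.3 on log2(FPKM + 1). The fit had a variance trend and 4 residual degrees of freedom. How well it recovers differences as small as those called between genotypes was not tested. Named genes were the 10 members of highest input, the 5 longest and shortest transcripts and proteins, up to 4 per family by input, the 3 largest and smallest ratios of input to RNA-seq, and up to 5 calls per contrast and direction, of which 1 is not reported here. Others (*Wbp2*, the remaining calls of the first families, *Gstp1* beside *Gstp2*, and genes of each noncoding type) were named after their values were seen. Alternatives were tried for thresholds, pseudocount, filter, scaling, variance model and libraries. Tables were handled with pandas 2.3.3 in Python 3.11.15.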

Additional observations from a re-analysis of the deposited data

Results flagged for a closer look

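For 7 members the effect of *Trincr1* deletion differed between the media by the interaction term of limma. The effect in PD + LIF minus that in 2i + LIF, on the log2(FPKM + 1) scale, was −1.63 for *S100a13* (adjusted p = 0.0188), −1.15 for *S100a1* (adjusted p = 0.0272), −1.15 for *Gstp2* (adjusted p = 0.0188), −0.81 for *Pigyl* (adjusted p = 0.0272), −0.81 for *Atp6ap1* (adjusted p = 0.0244), −0.45 for *Wbp2* (adjusted p = 0.0280) and 0.41 for *Med10* (adjusted p = 0.0382). With 2 samples per group, no group was large enough to be searched for outlying samples.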

How the results depend on the processing

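The number of members was 805 with an input of at least 20 FPKM and 41 with at least 100 FPKM, 229 with a ratio of pulldown to input under 0.01, 202 with no prefix left out, and, by an alternative chosen after seeing the data, 163 without near-copies. The median length of 1577 bases became 846 as the median over annotated transcripts (1001 for the others), 1017 from 100 FPKM and 2013 from 20 FPKM, and stayed within its 95% order-statistic interval for protein-coding genes (1616) and without near-copies (1742). The median ratio of input to RNA-seq ranged from 1.28 to 1.31.

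The 3 members called between genotypes in 2i + LIF became 0 with no filter on low values, 0 without the variance trend and 0 with only the compared groups, and ranged from 0 to 1 when 1 library was left out; 13 to 27 members had an unadjusted limma p under 0.05 in the fits with a count of 0. The 30 in PD + LIF became 11 without the trend and 6 with only the compared groups, and ranged from 5 to 24 without 1 library. The 7 of the interaction became 3 without the trend and ranged from 0 to 1 without 1 library. The 112 of the medium ranged from 96 to 113 without 1 library and from 98 to 119 otherwise. Replicate numbers did not pair the samples (correlations of deviations from −0.054 to 0.0063), and with the replicate block the counts were 1, 20, 3 and 110. The cause of these shifts was not tested. For 29 pairs of a gene and a contrast, up to 5 calls per contrast and direction, 0 of 429 alternative values changed direction and 128 lost the call, all of them between genotypes or in the interaction. Other calls named in the text (*Wbp2*, *Mrps18b*, *Polr2i* and *Gstp1* among them) were not followed gene by gene. The unknown depth of the RIP-Seq libraries limits every value of 0, and 2 samples per group limit the calls between genotypes.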
